A study of Arabidopsis thaliana with 6 samples.

Results

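The chloroplast pentatricopeptide repeat (PPR) proteins described here are the 56 protein-coding genes, of 32998 genes in the deposited table, whose description contains the words pentatricopeptide and chloroplastic but not mitochondrial. Their transcripts were measured by RNA sequencing of whole 12-day-old Arabidopsis thaliana seedlings, in 3 libraries of the mutant mdf-1 and 3 of the wild type (WT), accession Columbia. MDF (MERISTEM DEFECTIVE, listed as DOT2 in the table) encodes a splicing factor of the spliceosomal tri-snRNP, and mdf-1 is 1 T-DNA insertion line of it. Both groups were grown on medium with 1% sucrose under 16 h light at 22°C and 8 h dark at 18°C, so that WT and mdf-1 differ by genotype alone as far as the labels state. The comparison asks which transcripts were at another level when MDF carried the insertion.

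PPR proteins are RNA-binding proteins made of tandem helical repeats, each repeat contacting a single base, and almost all of them are encoded in the nucleus and imported into plastids or mitochondria. In chloroplasts they edit, splice, cut, stabilise or help to translate the transcripts of the plastid genome, usually with very few target sites per protein. Many mutants lacking one of them are pale, lack a photosynthetic complex or stop growth as embryos.

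The mdf-1 libraries held 44738352 to 45418026 counts on genes and the WT libraries 47175914 to 50088386. MDF itself had 3778, 3881 and 3681 normalized counts in mdf-1 and 3112, 2959 and 3032 in WT, where normalized counts are read counts scaled to a common library size. It was thus not lower in mdf-1 (log2 fold change 0.32, SE 0.05, adjusted p = 0.000586), and because reads were summed over all exons, this level is no check of the genotype labels. The seedlings differed in composition markers: the 9 root endodermis and root hair markers listed were all lower in mdf-1, with log2 fold changes between -2.93 and -1.57, and their summed level was 920 to 1153 normalized counts against 3644 to 4592 in WT. The 6 markers of dividing cells were also all lower, with sums of 4163 to 5108 against 6669 to 7355, whereas of 7 markers of photosynthetic tissue 3 were higher, 3 were lower and 1 was not called. No marker was at 0 in every library, and the part of these differences in the PPR results was not tested. In counts from whole seedlings, fewer cells of a type and less RNA per cell cannot be told apart. The study reports delayed root growth in mdf-1, and fewer dividing cells in the root meristem of younger mdf-1 seedlings.

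The 56 genes lie on all 5 nuclear chromosomes and encode proteins of 239 to 1440 residues, with a median of 709.5. In the RefSeq annotation 30 of them, or 53.6%, had no intron, against 19.0% of all nuclear protein-coding genes. Other PPR genes shared this: 62.0% of those described as mitochondrial and 55.1% of those with no organelle named had no intron. Chloroplast PPR proteins of one class end in a domain named DYW after its last amino acids, which carries the deaminase signature of RNA editing enzymes. The coding sequences of 6 members ended in codons for aspartate, tyrosine and tryptophan, and a further 7 carried the deaminase signature (a histidine-any-glutamate motif followed by a cysteine pair) with another ending, together 13 of 56. The last 30 bases of selected coding sequences, from the TAIR10.1 genome, are given 5′ to 3′ to show the DYW codons and the endings found in their place. The deaminase signature lies largely upstream of these bases. Capitals mark the last 3 codons before the stop codon. The first 6 end in the DYW codons, the next 4 carry the signature with another ending, and CRR4 has neither.
DYW1 (chr1:17486358-17486387, + strand): ggtaactgctcttgtggaGATTATTGGtag
RARE1 (chr5:4246954-4246983, - strand): ggaaagtgttcttgcaacGATTACTGGtga
OTP84 (chr3:21255731-21255760, - strand): ggaacttgctcctgtggaGACTATTGGtga
OTP82 (chr1:2514374-2514403, - strand): ggtgtttgttcctgcaatGACTACTGGtag
CRR2 (chr3:17231975-17232004, - strand): ggagtgtgttcttgtggaGATTACTGGtaa
EMB2261 (chr3:18226954-18226983, - strand): gggaaatgttcttgtaatGATTATTGGtga
EMB3141 (chr5:20520789-20520818, - strand): gggaagtgttcttgtggaGGTTATTGGtga
ECB2 (chr1:5331682-5331711, + strand): aaagatggagaatgttcaTGTGGAGATtag
OTP86 (chr3:23404933-23404962, + strand): ggactgtgttcttgcggaGATTCTTGGtga
OTP81 (chr2:12715071-12715100, + strand): gggcagtgttcctgtaacGATTTCTGGtga
CRR4 (chr2:18694816-18694845, - strand): gatagcattgaagtttccAGTACATTGtag

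All 56 members passed the filter on low counts and were tested. At a Benjamini-Hochberg adjusted p below 0.05 (edgeR quasi-likelihood test), 26 members, or 46.4%, fell in mdf-1, where 33.9% of all 22397 genes tested did. Another 8 members, or 14.3%, rose, against 33.5% of all genes, and 22 were not called. Scaling to total counts instead, which moved the median of all genes to -0.14 on the log2 scale, gave 30 decreases and 6 increases among the members, against 41.7% and 24.8% of all genes. In all 34 called members the 3 mdf-1 and 3 WT libraries did not overlap, and the same held for AT3G26630 and OTP82, which were not called. These are 36 of 56 members, or 64.3%, against 73.2% of all genes. The share called in either direction, 60.7%, was below the 67.4% of all genes, and most of the members' calls were decreases.

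**Figure D1:**
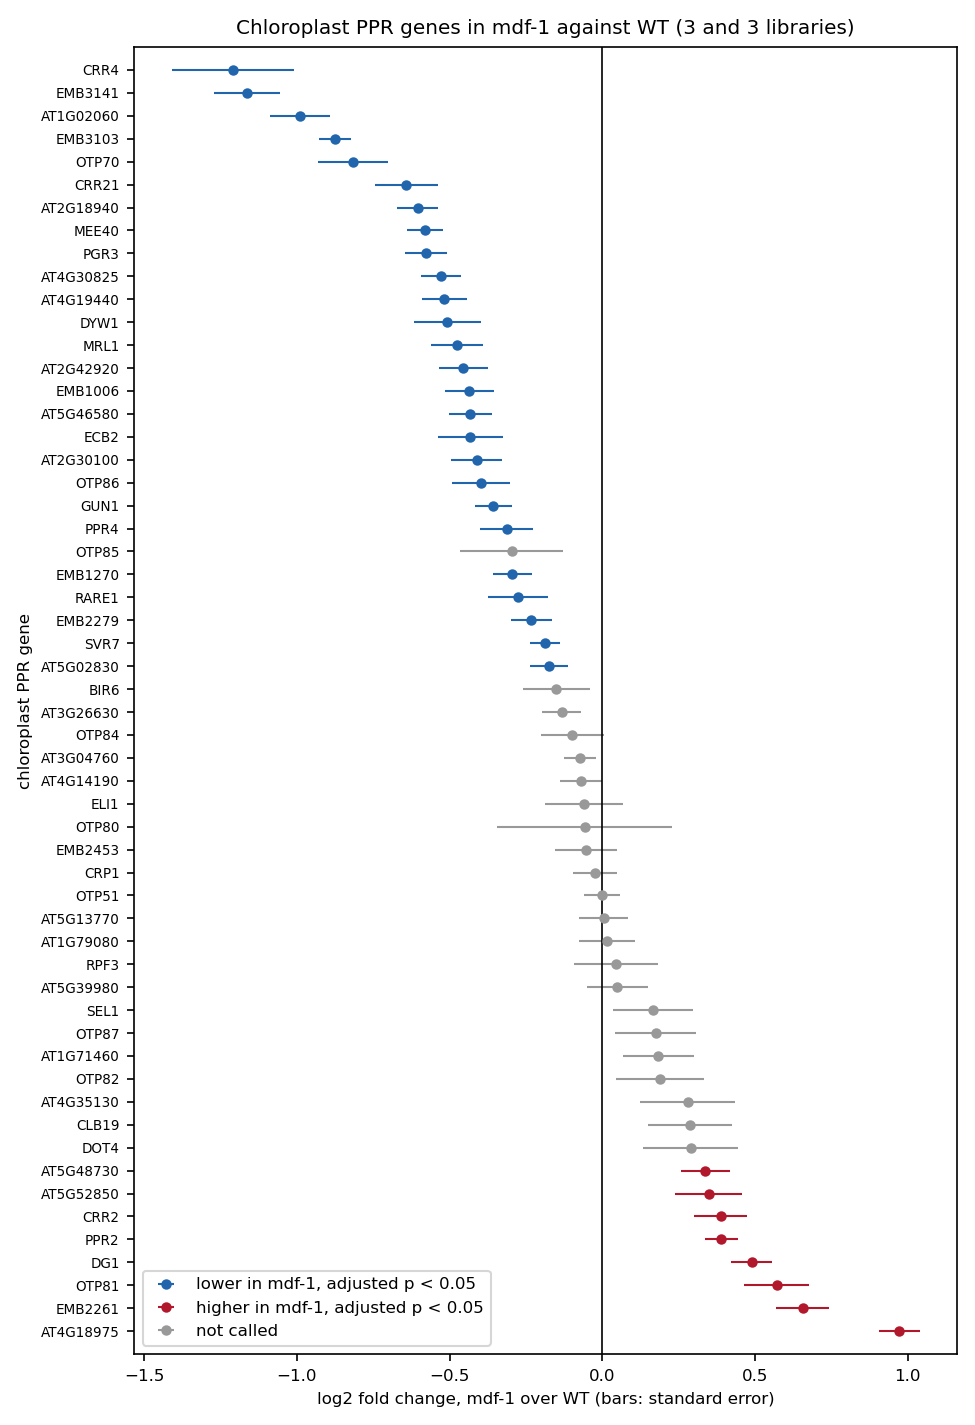
Log2 fold change of mdf-1 over WT for the 56 chloroplast PPR genes, ordered from the lowest to the highest, with standard errors. The 26 genes in blue fell, the 8 in red rose and the 22 in grey were not called.

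The changes were small. The median log2 fold change of the members was -0.14, against 0.01 for all genes, and the middle 50% of the members lay between -0.44 and 0.17. Only CRR4 and EMB3141 changed by more than 1 on the log2 scale. The summed normalized counts of the members came to 66368, 73814 and 70277 for mdf-1, against 82161, 79673 and 83346 for WT. All 3 mdf-1 sums lay below all 3 WT sums, and their mean was 85.8% of the WT mean. The sums are weighted by the abundant members, the most abundant of which, GUN1, had a mean of 11551 in mdf-1 and 14798 in WT.

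The 13 members on the list of C-to-U RNA editing factors held the most strongly lowered transcript. Editing factors bind next to a cytidine of a plastid transcript that is converted to uridine. CRR4 is required to make the start codon of the plastid ndhD transcript, for a subunit of the NADH dehydrogenase-like complex, by this conversion. It had 31.8, 44.8 and 37.2 normalized counts in mdf-1 and 92.3, 84.0 and 87.4 in WT. Every mdf-1 library lay well below every WT library, but the gene was one of the least abundant members, with 0.999 ± 0.049 FPKM (a read count scaled by gene length and library size, mean ± SD, n = 3) in WT. It was 2.31-fold lower in mdf-1 (log2 fold change -1.21, SE 0.20, adjusted p = 0.00086).

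DYW1, which supplies the deaminase domain that CRR4 lacks at the same ndhD site, fell as well. This gene is on none of the role lists and was picked after its values were seen. Its normalized counts were 515, 688 and 594 in mdf-1 and 911, 798 and 844 in WT. The groups did not overlap, and DYW1 was 1.42-fold lower (log2 fold change -0.51, SE 0.11, adjusted p = 0.00342). At 20.4 FPKM in WT against 0.999 FPKM for CRR4, the level per length of DYW1 was much the higher of the pair in the same libraries.

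CRR21, which edits another site of ndhD, had 530, 696 and 615 normalized counts in mdf-1 and 966, 894 and 1012 in WT. No mdf-1 library reached the lowest WT library. The log2 fold change was -0.64 (SE 0.10, adjusted p = 0.000737). ECB2, an editing factor of the accD transcript for a subunit of acetyl-CoA carboxylase, was lower by -0.43 on the log2 scale (SE 0.11, adjusted p = 0.00681). OTP86, an editing factor of the OTP series, had a log2 fold change of -0.40 (SE 0.10, adjusted p = 0.00604). RARE1, also required for accD editing, had a smaller change of -0.28 (SE 0.10, adjusted p = 0.036), and this call was lost without mdf-1 replicate 1 or 2 or WT replicate 1 or 3, with an adjusted p of up to 0.135.

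OTP81 was the only one of the 13 listed editing factors called higher. It had 418, 459 and 402 normalized counts in mdf-1 and 298, 258 and 304 in WT. All mdf-1 libraries lay above all WT libraries, with a log2 fold change of 0.57 (SE 0.11, adjusted p = 0.00161). The other 7 (OTP80, OTP82, OTP84, OTP85, ELI1, SEL1 and CLB19) were not called, with log2 fold changes between -0.30 for OTP85, which was called only without WT replicate 2, and 0.29 for CLB19. CLB19 edits rpoA and clpP, transcripts for an RNA polymerase subunit and a protease subunit, and had an adjusted p of 0.0938. OTP80 was the least abundant member (0.565 FPKM in WT), and with an SE of 0.29 a difference of the size seen for OTP81 was near the limit of what its counts could show. In sum 5 of the 13 listed editing factors (38.5%) fell and 1 (7.7%) rose, where 33.9% of all genes fell and 33.5% rose. Of the 13 members with the deaminase signature, which overlap this list in part, 5 (38.5%) fell and 3 (23.1%) rose. Both shares of decreases were near that of all genes.

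**Figure D2:**
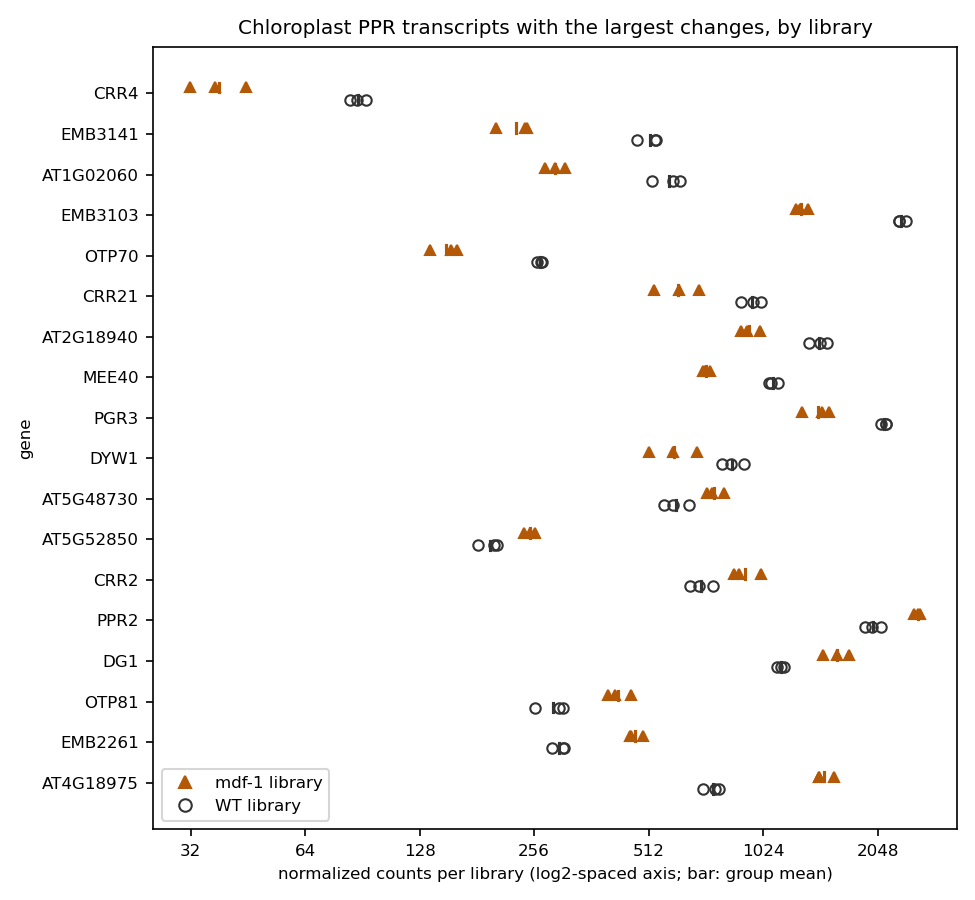
Normalized counts in each of the 3 mdf-1 libraries (triangles) and 3 WT libraries (circles), on a log2-spaced axis with group means as bars, for CRR4, DYW1 and the members with the largest called decreases and increases. In every gene plotted the libraries of the groups do not overlap, from CRR4 at 31.8 to 92.3 counts up to PPR2 at 1900 to 2656 counts.

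Of the 6 members on the intron splicing list, 4 fell and none rose, where 33.9% of all genes fell and 33.5% rose. Plastid introns cannot splice themselves in the plant and need nucleus-encoded factors. EMB3103 (AT1G10910, chr1:3639835-3644187), named for its embryo-defective mutant, had 1253, 1278 and 1341 normalized counts in mdf-1 and 2327, 2334 and 2439 in WT. The libraries of each genotype were close together and far from those of the other, and this gene had the smallest adjusted p of all members (log2 fold change -0.87, SE 0.05, adjusted p = 6.45e-06). It overlaps the neighbouring gene AT1G10920 by its deposited coordinates, and reads of the overlap cannot be assigned without strand.

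OTP70 is required to splice the intron of rpoC1, the plastid transcript for a subunit of the plastid-encoded RNA polymerase. Its normalized counts were 136, 160 and 155 in mdf-1 and 259.9, 267 and 268 in WT. The groups lay apart by more than the range of either, and OTP70 was 1.76-fold lower (log2 fold change -0.82, SE 0.12, adjusted p = 0.000368). OTP70 overlaps the neighbouring gene AT4G25260 by its deposited coordinates, with the same limit as for EMB3103. PPR4, a factor for the trans-spliced rps12 transcript, had a log2 fold change of -0.31 (SE 0.09, adjusted p = 0.0123). EMB2279 had a change of -0.23 (SE 0.07, adjusted p = 0.0144), which was past the threshold except without WT replicate 1, where the adjusted p was 0.0502. OTP51, which splices intron 2 of ycf3, had 838, 854 and 812 counts in mdf-1 and 842, 812 and 852 in WT. The values of OTP51 overlapped almost completely (log2 fold change 0.00, SE 0.06), and those of EMB2453 overlapped as well (-0.05, SE 0.10).

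On the list for RNA processing, stability and translation all 7 members were called, 5 lower and 2 higher, where 67.4% of all genes were called in either direction. PGR3, which stabilises a plastid transcript for the cytochrome b6f complex and activates translation, had 1296, 1530 and 1465 normalized counts in mdf-1 and 2157, 2087 and 2158 in WT. MRL1, which stabilises the rbcL transcript for the large subunit of Rubisco, had 3859, 4794 and 4722 in mdf-1 and 6261, 5966 and 6378 in WT. For both, the highest mdf-1 library was below the lowest WT library, and the mdf-1 libraries were the more scattered of the groups. The log2 fold changes were -0.58 for PGR3 (SE 0.07, adjusted p = 0.000143) and -0.48 for MRL1 (SE 0.09, adjusted p = 0.00135). SVR7, required for accumulation of the plastid ATP synthase, was lower by only -0.19 (SE 0.05, adjusted p = 0.01). AT4G30825 (-0.53, SE 0.06) and AT5G46580 (-0.43, SE 0.07), which carry no symbol in the table, completed the decreases.

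CRR2 and PPR2 moved the other way. CRR2 is needed to cut the plastid transcript between rps7 and ndhB, and had 1011, 885 and 858 normalized counts in mdf-1 and 657, 755 and 693 in WT. PPR2, which binds the 23S ribosomal RNA of the plastid, had 2556, 2656 and 2619 in mdf-1 and 1984, 1900 and 2092 in WT. In neither gene did a WT library reach the lowest mdf-1 library. Both had a log2 fold change of 0.39, with an SE of 0.09 and an adjusted p of 0.00405 for CRR2, and an SE of 0.05 and an adjusted p of 0.000332 for PPR2.

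GUN1, a regulator in signalling from the plastid to the nucleus, was the most abundant member, at 91.0 ± 1.11 FPKM in WT and 70.8 ± 3.17 FPKM in mdf-1 (SD, n = 3). It had 11281, 12249 and 11124 normalized counts in mdf-1 and 14669, 14717 and 15007 in WT. These groups did not overlap (log2 fold change -0.36, SE 0.06, adjusted p = 0.000944). DG1, whose mutant has pale young leaves, had 1473, 1601 and 1721 counts in mdf-1 and 1140, 1113 and 1162 in WT. It was higher in all 3 mdf-1 libraries, by 0.49 on the log2 scale (SE 0.07, adjusted p = 0.000323). The 2 members listed only for an embryo-defective mutant both fell, where 33.9% of all genes fell and 33.5% rose. EMB1006 was lower by 0.44 (SE 0.08, adjusted p = 0.00149) and EMB1270 by 0.29 (SE 0.06, adjusted p = 0.00363) on the log2 scale. Of the 2 genes on this list outside the membership rule, 1 fell and 1 was not called.

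Several of the largest changes belonged to members on no role list. EMB3141 (chr5:20520600-20523212), another gene with an embryo-defective mutant and with the deaminase signature, had 245, 203 and 242 normalized counts in mdf-1 and 536, 532 and 477 in WT. AT1G02060 (chr1:360918-363142), which has no annotated intron, had 273, 291 and 309 in mdf-1 and 593, 620.0 and 523 in WT. In both genes every mdf-1 library was far below every WT library, at 2.24-fold for EMB3141 (log2 fold change -1.16, SE 0.11, adjusted p = 4.23e-05) and 1.99-fold for AT1G02060 (-0.99, SE 0.10, adjusted p = 5.88e-05). AT2G18940 followed with -0.60 (SE 0.07, adjusted p = 0.000109) and MEE40, named for a maternal-effect embryo arrest, with -0.58 (SE 0.06, adjusted p = 6.05e-05).

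AT4G18975 (chr4:10391884-10393923) was the member with the largest increase. It has 9 annotated introns and encodes a short protein of 287 residues. Its normalized counts were 1577, 1433 and 1435 in mdf-1 and 714, 784 and 767 in WT. The lowest mdf-1 library was well above the highest WT library, and the gene was 1.96-fold higher (log2 fold change 0.97, SE 0.07, adjusted p = 1.05e-05). EMB2261, a DYW member with an embryo-defective mutant, had 461, 494 and 457 in mdf-1 and 306, 285 and 304 in WT. These did not overlap either, with a log2 fold change of 0.66 (SE 0.09, adjusted p = 0.000255). AT5G48730 (0.34, SE 0.08, adjusted p = 0.00595) and AT5G52850 (0.35, SE 0.11, adjusted p = 0.0207) were the remaining increases. Both overlap a neighbouring gene, and both were lost with scaling to total counts, AT5G52850 also without mdf-1 replicate 2 or WT replicate 1 or 2, with an adjusted p of up to 0.142.

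**Figure D3:**
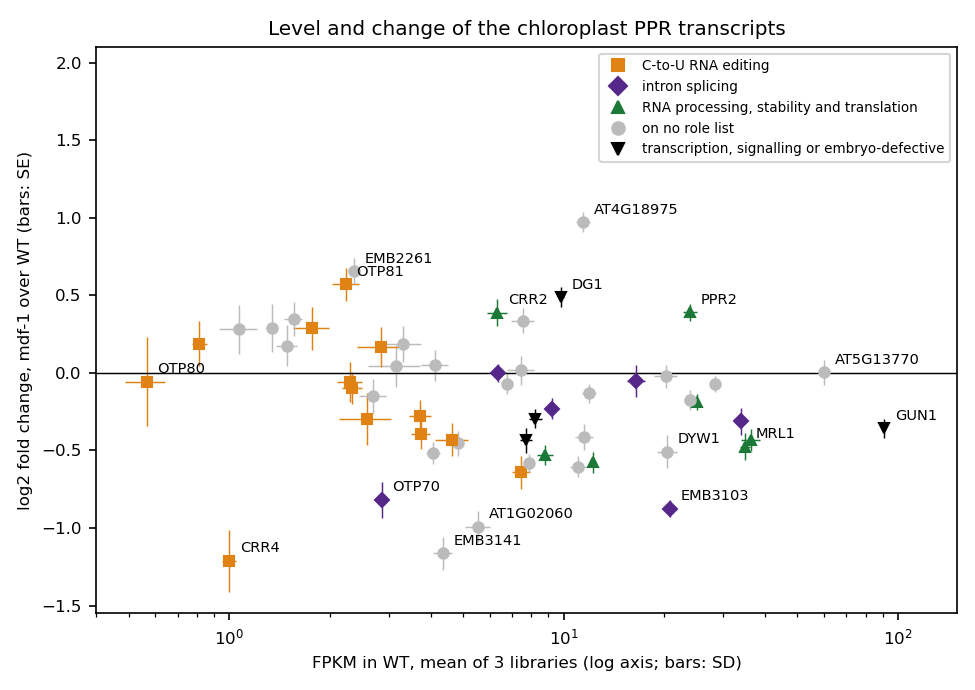
Log2 fold change (bars, SE) against the WT level per gene length in FPKM (log axis; bars, SD, n = 3) of the 56 members, marked by role list. The listed editing factors range from OTP80 at 0.565 FPKM to CRR21 at 7.45 FPKM, and GUN1 at 91.0 FPKM is the highest member.

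The members spanned a wide range of levels, from 0.565 to 91.0 FPKM in WT with a median of 6.56 FPKM. In mdf-1 the median was 5.47 FPKM. After GUN1 came AT5G13770 (60.0 ± 1.73 FPKM in WT), AT5G46580 (36.3 ± 2.42), MRL1 (34.9 ± 1.22) and PPR4 (33.9 ± 0.916). The last 3 of these neighbours lay within about 1 SD of each other. AT5G13770, the second in level, had 5135, 6374 and 5899 normalized counts in mdf-1 and 5946, 5627 and 5779 in WT. Its mdf-1 libraries enclosed the WT libraries, and it was not called (log2 fold change 0.00, SE 0.08). Of the 28 members at or above the median WT level 17 (60.7%) fell and 4 (14.3%) rose. Of the 28 below it 9 (32.1%) fell and 4 (14.3%) rose, where 33.9% of all genes fell and 33.5% rose. The share of decreases exceeded that of all genes only among the more abundant members. The WT counts enter both this split and the fold change, and the share of all genes was not matched for level. The editing list had a median of 2.33 FPKM in WT, against 12.8 FPKM for the splicing list and 23.9 FPKM for the list of processing and translation, so that the calls of the editing factors rest on fewer reads.

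Across the 56 members the log2 fold change had only weak relations with other features of the gene. Pearson's r was -0.17 with the log2 coding length, -0.17 with the log2 WT level and 0.00 with the number of annotated introns, and Spearman's rho was -0.17, -0.27 and 0.05. These are descriptions across genes measured in the same 6 libraries. Of 30 members with no annotated intron 13 fell and 2 rose, and of 26 with an intron 13 fell and 6 rose. Among all 3055 tested protein-coding genes with no annotated intron 40.2% fell and 26.2% rose, and among 4217 tested genes within the interquartile range of the members' lengths 39.5% fell and 26.0% rose. Both shares of decreases lie between those of all genes and of the members.

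Site II elements, short promoter motifs found in many plant genes for organelle and ribosome functions, were searched as TGGGCC or TGGGCT on both strands, from 250 bases before to 50 bases after the annotated gene start. A match was present in 23 of 56 members, or 41.1%, and in 21.7% of 27444 nuclear protein-coding genes. Among PPR genes with no organelle named the share was 33.9%, among mitochondrial PPR genes 29.9% and among other proteins described as chloroplastic 30.5%. Of the 23 members with a match 11 (47.8%) fell and 3 rose, and of the 33 without one 15 (45.5%) fell and 5 rose. Nearly equal shares thus fell with and without a match, where 33.9% of all genes fell and 33.5% rose. A window of 30 bases around the first match is given for members that fell, then for members that rose, to show that the same letters stand before genes of either direction. Capitals mark the match on either strand, and sequences are from TAIR10.1.
CRR4 (chr2:18696805-18696834, - strand): agatattgagatTGGGCTtataatatttat
AT1G02060 (chr1:363195-363224, - strand): cacctctataatTGGGCCtaaagtaaagtt
EMB3103 (chr1:3639654-3639683, + strand): ggtttgcctaaaAGCCCAtttgtctctccc
PGR3 (chr4:15402667-15402696, + strand): gaggcctaaaaaTGGGCCtgaattgggcct
AT4G18975 (chr4:10394060-10394089, - strand): gtttctctctgtTGGGCTagatttgtctaa
CRR2 (chr3:17234159-17234188, - strand): taaacttagatcAGCCCAattcaaaactaa

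Other PPR genes were compared by the same counts. Of 137 genes described as mitochondrial PPR proteins 135 were tested, and 38 of these (28.1%) fell and 23 (17.0%) rose, with a median log2 fold change of -0.08. Of 245 PPR genes with no organelle in the description 227 were tested, and 74 (32.6%) fell and 32 (14.1%) rose, with a median of -0.08. In all 3 PPR groups the share of increases was below the 33.5% of all genes, and the share of decreases exceeded that of all genes only among the chloroplast members. These were also the more abundant, with a median of 6.56 FPKM in WT. The median was 2.17 FPKM for the mitochondrial PPR genes and 1.78 FPKM for those with no organelle named. Of the chloroplast members below their median WT level 32.1% fell, and the part of level in these shares was not tested. The summed normalized counts of the mitochondrial PPR genes were 87087 to 100758 in mdf-1 and 73527 to 82595 in WT, the opposite order from the chloroplast members. Those of the PPR genes with no organelle named were 80276 to 84349 in mdf-1 and 93050 to 93955 in WT, the same order as the chloroplast members, with a mean at 88.3% of WT. Such sums are weighted by the abundant genes. The mitochondrial sum was higher in mdf-1 although 38 of these genes fell and 23 rose, so it does not give the direction of most of them. Of 878 tested genes for other proteins described as chloroplastic, 233 (26.5%) fell and 315 (35.9%) rose. The differences between these groups of genes were not tested.

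**Figure D4:**
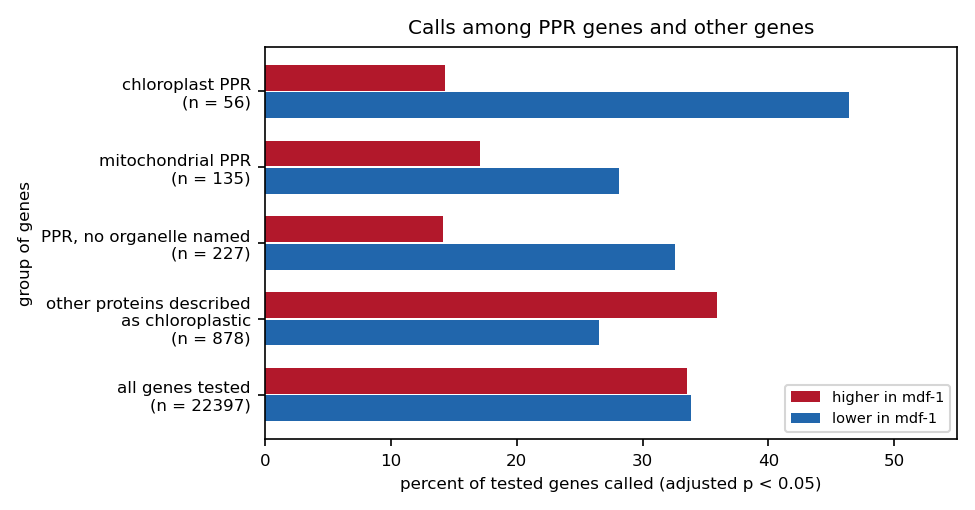
Percent of tested genes called higher (red) or lower (blue) in mdf-1 at an adjusted p below 0.05, for the chloroplast PPR genes, mitochondrial PPR genes, PPR genes with no organelle named, other proteins described as chloroplastic, and all genes. The bar of decreases is 46.4% for the chloroplast PPR genes and 33.9% for all genes.

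The label chloroplastic was checked against the RefSeq notes. For 3 members these notes describe a role in mitochondrial RNA: RPF3, in the processing of mitochondrial transcript ends, OTP87, in mitochondrial editing, and BIR6, in splicing a mitochondrial nad7 intron. None of the 3 was called (log2 fold changes 0.04, 0.17 and -0.15), although BIR6 was with scaling to total counts. RPF3 was also the only member with a near-identical copy, since its coding sequence matched AT1G63130 at 90.8% identity over 93.8% of its length, and its reads may be shared. Of all members 18 overlap another gene in the deposited coordinates. Among them are OTP70, PGR3, OTP81, EMB1006, EMB1270, CLB19 and AT5G13770, and reads of an overlap cannot be assigned without strand. In the other direction, 12 genes of the role lists are PPR genes whose description is outside the membership rule, and of these 9 fell, 1 rose and 2 were not called, where 33.9% of all genes fell and 33.5% rose. The largest change among them was that of CRR28 (log2 fold change -1.37, SE 0.12, adjusted p = 3.20e-05), a gene of ndh editing whose description names both organelles.

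Lists of partners of PPR proteins hold 42 nuclear genes for plastid RNA metabolism without PPR repeats. Of these 16 (38.1%) fell and 16 (38.1%) rose, near the 33.9% and 33.5% of all genes. Among 6 editing cofactors 2 fell and 3 rose, with MORF8 (RIP1 in RefSeq) at 0.48 (SE 0.05, adjusted p = 8.25e-05). Among 10 splicing factors 3 fell and 6 rose, and among 18 components and partners of the plastid RNA polymerase 6 fell and 6 rose, with the sigma factor SIG1 highest at 0.82 (SE 0.11, adjusted p = 0.000315). Of 8 ribonucleases and RNA-binding proteins 5 fell and 1 rose, and the exoribonuclease PNP (RIF10 in RefSeq) was lowest at -0.90 (SE 0.08, adjusted p = 4.54e-05).

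Transcripts of the plastid genome, the substrates of the members, were covered thinly. Plastid-encoded genes took 0.0126% to 0.0153% of each library. Of 133 such genes 70 passed the filter, and 18 of these (25.7%) rose and 15 (21.4%) fell, both below the shares of all genes (33.5% and 33.9%). Plastid RNA mostly lacks poly(A) tails, and the selection of RNA for these libraries is not given in the sources used here, so that the part of it covered by the counts is not known. Gene counts measure neither editing nor splicing.

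RPOC2 and RPOC1, for subunits of the plastid-encoded RNA polymerase, were the farthest apart between genotypes. RPOC1, whose intron requires OTP70, had 58.2, 72.8 and 69.1 normalized counts in mdf-1 and 304, 316 and 327 in WT. RPOC2 had 16.5, 19.0 and 19.1 in mdf-1 and 248, 230.2 and 261 in WT. Each of these transcripts was several times lower in every mdf-1 library, at 4.73-fold for RPOC1 (log2 fold change -2.24, SE 0.13, adjusted p = 5.99e-06) and 13.4-fold for RPOC2 (-3.75, SE 0.16, adjusted p = 2.07e-06). RPOB, which precedes them in the same operon, was not lower (945, 1184 and 1032 in mdf-1 against 790, 882 and 876 in WT). Its increase of 0.31 (SE 0.09, adjusted p = 0.0165) was lost without mdf-1 replicate 2 or WT replicate 1 and with total counts, the highest adjusted p being 0.125.

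The targets of CLB19 differed in opposite directions. RPOA had 30.7, 41.4 and 22.3 normalized counts in mdf-1 and 96.1, 86.8 and 122 in WT. CLPP1 had 430.2, 598 and 540 in mdf-1 and 226, 204 and 220 in WT. No library of one genotype overlapped the other in these genes, with log2 fold changes of -1.69 for RPOA (SE 0.26, adjusted p = 0.000634) and 1.27 for CLPP1 (SE 0.13, adjusted p = 7.67e-05). Other named targets were not called: NDHD (0.22, SE 0.38), the target of CRR4, DYW1 and CRR21, had 14.9 to 27.4 counts in mdf-1 and 12.2 to 25.5 in WT, and RBCL (0.29, SE 0.19), the target of MRL1, had 219.5 to 256.5 in mdf-1 and 139 to 227 in WT. YCF3, spliced with OTP51, had 23.0, 29.1 and 31.9 in mdf-1 and 16.0, 22.6 and 15.9 in WT. The libraries of YCF3 did not overlap, but it was not called (log2 fold change 0.62, SE 0.29, adjusted p = 0.0884). ACCD, edited with RARE1 and ECB2, overlapped between the groups (-0.49, SE 0.67), and at this depth only large differences in it would have been detectable. Of the plastid genes for the ATP synthase, which requires SVR7, ATPF was lower by -1.36 (SE 0.28, adjusted p = 0.00287). ATPH (-0.60, SE 0.20, adjusted p = 0.028) and ATPB (-0.43, SE 0.11, adjusted p = 0.009) were lower as well. ATPA (-0.07), ATPE (0.10) and ATPI (-0.45) were not called, and a link to SVR7 was not tested.

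**Figure D5:**
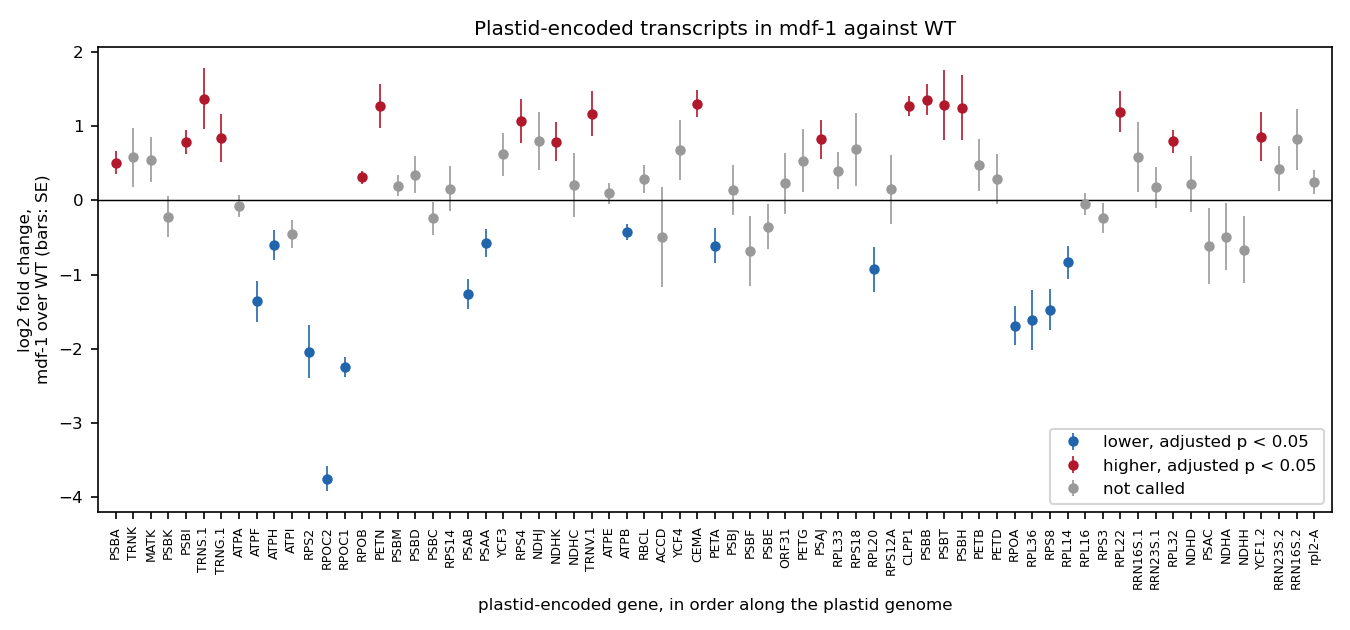
Log2 fold change of mdf-1 over WT with SE for 69 of the 70 tested plastid-encoded genes, in their order along the plastid genome. RPOC2 at -3.75 and RPOC1 at -2.24 stand beside RPOB at 0.31, and further lower genes include PSAB (-1.27) and RPOA (-1.69).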

How the data were processed

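RNA of 3 mdf-1 and 3 WT seedling samples was sequenced from NEBNext Ultra libraries, a kit not stated to mark strand. Per the labels' processing notes the authors used fastp, HISAT2 and featureCounts with TAIR10, and deposited raw counts, FPKM and gene lengths per gene. The FPKM values deposited by the authors equal counts divided by gene length and by 1 size per library. A further 6 per-sample columns of size-factor-normalized counts and the authors' fold changes, p-values and adjusted p-values were not used. The samples are biological replicates by the study's text, and what they share is not stated. The SDs and SEs given include the variation between the libraries of a group.

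Counts were fitted over the whole table in R 4.3.3 with edgeR 4.0.16 (filterByExpr, TMM, robust quasi-likelihood test, genotype as the only term) and Benjamini-Hochberg adjustment, and called at an adjusted p below 0.05. Each SE is the absolute log2 fold change divided by the square root of its F value. Normalized counts are counts divided by the TMM effective library size, times its mean. The steps were tested on simulated counts. Alternatives used DESeq2 1.42.0, other scalings and filters, a replicate term and each library left out. Introns, coding sequences and promoters came from the RefSeq annotation of TAIR10.1, in which 27443 of 27444 nuclear protein-coding genes had the coordinates of the table. Copies were searched with BLAST 2.17.0. Tables and figures used Python 3.11.15, pandas 2.3.3 and matplotlib 3.10.9.

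Members, role lists and tests were chosen with earlier results of these data known. The genes named were all members on the role lists, the 8 members with the largest increase and the 8 with the largest decrease among those called, averaging at least 100 counts and with libraries that did not overlap, the 5 members with the highest FPKM, and MDF. The other genes named, among them DYW1, AT3G26630, RPF3, OTP87, BIR6, AT5G02830, the partners and the plastid-encoded genes, were chosen after their values were seen. The values of 1 plastid-encoded gene are not reported here.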

Additional observations from a re-analysis of the deposited data

How the results depend on the processing

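No call among the members changed direction in any of the 14 alternative fits. Of 34 called members 29 stayed past the threshold in all of them, and 5 (RARE1, EMB2279, AT5G02830, AT5G48730 and AT5G52850) were lost in at least 1. AT5G02830 (log2 fold change -0.17) was lost without mdf-1 replicate 1 or any 1 WT replicate, with an adjusted p of up to 0.105. A further 6 members were called only in an alternative: OTP85 without WT replicate 2, DOT4 without mdf-1 replicate 3, AT3G26630 with upper-quartile factors and total counts, and BIR6, AT3G04760 and AT4G14190 with total counts. With each library left out in turn, 7 to 9 members rose, 23 to 26 fell and the median log2 fold change lay between -0.20 and -0.11, the lowest without mdf-1 replicate 3. With scaling to total counts 6 members rose, 30 fell and their median was -0.29. The difference between the medians of members and of all genes was -0.15 with TMM and with total counts. With DESeq2, RLE factors, no filter, at least 10 counts in every library or protein-coding genes only, 8 members rose and 26 fell, as in the main test. At an adjusted p below 0.01, 7 rose and 22 fell, and with CRR28 added to the members 8 rose and 27 fell. Replicate numbers were not taken to pair the samples, since deviations of same-numbered samples correlated at 0.04, 0.00 and 0.08. With the replicate block, 8 members rose, 26 fell, and the median was -0.14. Depth limits the least abundant members, the lowest count of a member in a library being 29.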
